A study of Drosophila melanogaster with 6 samples.

Results

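Cytosolic ribosomal proteins are the protein parts of the ribosomes that translate nuclear messenger RNAs. Here they are the genes whose symbol begins with RpS (small subunit), RpL or RpLP (large subunit) followed by a digit, on probe sets that the array annotation assigns to 1 gene. This gave 47 probe sets for 41 genes, 16 of the small and 25 of the large subunit, of 11982 genes named singly on the array. Each gene was represented by its probe set with the highest mean signal over the 6 arrays. The RefSeq table of Release 6 genes holds 92 protein-coding genes with this name pattern. The other genes, RpL22, RpS5a, RpS19a and RpS6 among them, were not analysed here.

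The flies were adult w1118 females, a laboratory strain with a mutation in the eye pigment gene white, taken at an age of 3 to 5 days and kept for 1 week in normal oxygen at room temperature after eclosion at 25 °C. One group stayed on the regular Jazz-Mix diet (RD, 3 arrays) and the other received a high-fat diet with coconut oil at 20% weight per volume (HFD, 3 arrays). Whole-body RNA was taken at an age of 10 to 12 days and hybridised to Affymetrix arrays, and each array gave a MAS5 signal per probe set. The number of flies in a sample, and whether replicates came from different vials, are not in the labels, so p-values measure the spread between these samples, which may be technical.

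In each ribosome the small subunit reads the messenger RNA and the large subunit joins the amino acids, and every ribosome needs about equal numbers of most of these proteins. Flies that lack a copy of many ribosomal protein genes show the Minute phenotype of slow growth and short bristles. The ovary is a major site of ribosome production in females, since the germline stocks the egg with them, and nutrient signals through Tor and Myc are known to set its rate. Several fly ribosomal proteins have a second gene, often used mainly in the germline.

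At the deposited scaling, little difference between diets was called among the ribosomal protein genes measured, each by its brightest probe set. For the 7 tested members with a signal under 1000, the widest ends of the 95% confidence intervals were folds of 0.427 and 2.31. A second probe set of RpS30, not counted here, fell by 0.55 (limma, adjusted p = 0.00737). Of 40 members tested, 1 was lower in HFD, none was higher, and 39 did not pass an adjusted p of 0.05 (limma, Benjamini-Hochberg over all 11261 tested probe sets). Over all tested probe sets, 19.5% passed, 12.9% higher and 6.63% lower, and in the brightest 10% without the members 24.7% did. The count depended on the processing. With arrays centred on their medians 25 members were lower, against 35.7% of all tested probe sets. With array weights 16 were higher and 3 lower, against 31.4% and 23.1% of all tested probe sets. At an unadjusted p of 0.05, none of the 15 tested small subunit genes and 5 of the 25 large subunit genes passed, 12.5% of members against 35.5% of all tested probe sets. The 5 were RpL23, RpL7-like and the copies RpL22-like, RpL10Aa and RpL37-2, with the subunit assigned by name alone. The median log2 fold change, HFD minus RD, was 0.0075 over the members and 0.0083 over all tested probe sets. The member outside the test, RpS28-like, had signals of 5.02 to 7.72 in RD and 8.90 to 11.6 in HFD, without overlap but too dim to be tested.

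The signals fell into a bright and a dim class. In 33 genes all 6 signals exceeded 1000, and they ran from 2445 to 16056. On every array 30 members lay above the 99th percentile of the probe sets, which was 5456 to 6238. RpL41, which codes for a peptide of the large subunit, had the highest signal of all probe sets other than controls on 4 arrays and the second highest on HFD arrays 1 and 3. At the top of the signal range a real difference may be compressed, which was not tested. Signals of different probe sets do not give relative amounts of their transcripts.

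**Figure D1:**
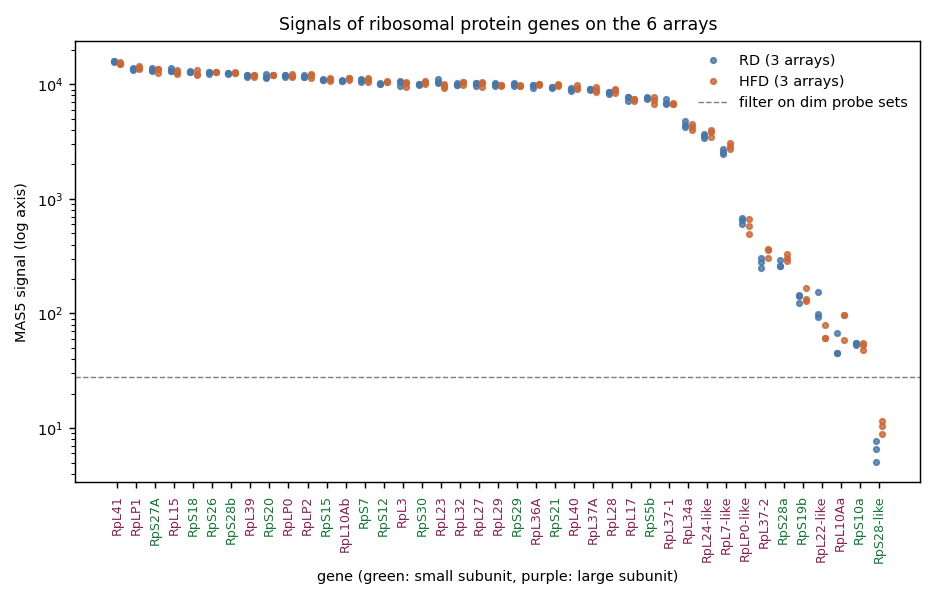
MAS5 signal on a log axis for each of the 41 genes, in order of mean signal, with the 3 RD and 3 HFD arrays as points and the lowest mean level that entered the test as a dashed line. In 33 genes every point is above 1000, and the points of the diets overlap for most genes.

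Among the 33 bright genes no difference between diets passed at the deposited scaling. Their log2 fold changes ran from -0.13 to 0.16, and the widest ends of their 95% confidence intervals were -0.24 and 0.31, a fold of 0.848 to 1.24. These limits hold for that scaling: with each array centred on its median 23 of the 33 were called lower, and the log2 fold changes ran from -0.33 to -0.044. That centring called 35.7% of all tested probe sets lower and put their median log2 fold change at -0.20. The pooled SD within a diet had a median of 0.046 on the log2 scale for these genes, against 0.069 in the brightest 10% without members and 0.12 over all tested probe sets. Over all members, 5 of 40 (12.5%) had no overlap between the diets, 3 above and 2 below in HFD, against 42.0% of all tested probe sets and 48.4% of the brightest 10% without the members.

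In the small subunit, 15 genes were tested and their median log2 fold change was 0.020. RpS27A, made as a fusion with ubiquitin, had signals of 13763, 13093 and 13266 on RD arrays 1 to 3 and 12689, 13561 and 13576 on HFD arrays 1 to 3. These ranges overlapped, and the log2 fold change was -0.011 ± 0.044 (SE; limma, adjusted p = 0.874). RpS12, which flies need to sense cells short of ribosomal proteins in cell competition, had signals of 10349, 10100 and 10011 in RD and 10565, 10729 and 10574 in HFD. All 3 HFD values lay above the RD values, but the difference of 0.065 ± 0.037 did not pass (limma, adjusted p = 0.237). RpS21, chosen after its values were seen, was the other small subunit gene without overlap, at 9405 ± 163 in RD and 9833 ± 227 in HFD (SD, n = 3). Its log2 fold change was 0.064 ± 0.039. The widest 95% confidence interval ends of the 12 bright small subunit genes were -0.19 and 0.15.

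In the large subunit, 25 genes were tested and their median was 0.00020. The stalk proteins RpLP0, RpLP1 and RpLP2 bring elongation factors to the ribosome. RpLP0 was at 11916 ± 256 in RD and 11864 ± 344 in HFD (SD, n = 3). RpLP1 was at 13617 ± 175 and 13972 ± 451, and RpLP2 at 11777 ± 306 and 11901 ± 442. The stalk genes therefore overlapped between diets, with adjusted p of 0.534 to 0.92 (limma). RpL40, also made fused to ubiquitin, was at 0.052 ± 0.048 on the log2 scale.

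RpL32 is the usual reference transcript of fly quantitative PCR, under its older name rp49. Its signals were 9879, 10223 and 9831 in RD and 9923, 10434 and 10543 in HFD. The ranges overlapped, with a log2 fold change of 0.046 ± 0.042 (95% confidence interval -0.051 to 0.14; limma, adjusted p = 0.46). RpL23, chosen after its values were seen, had the lowest log2 fold change among the bright genes. Its signals were 10322, 11115 and 10421 in RD and 9385, 9662 and 10157 in HFD, without overlap. The difference of -0.13 ± 0.048 on the log2 scale did not pass over all probe sets (limma, adjusted p = 0.106).

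**Figure D2:**
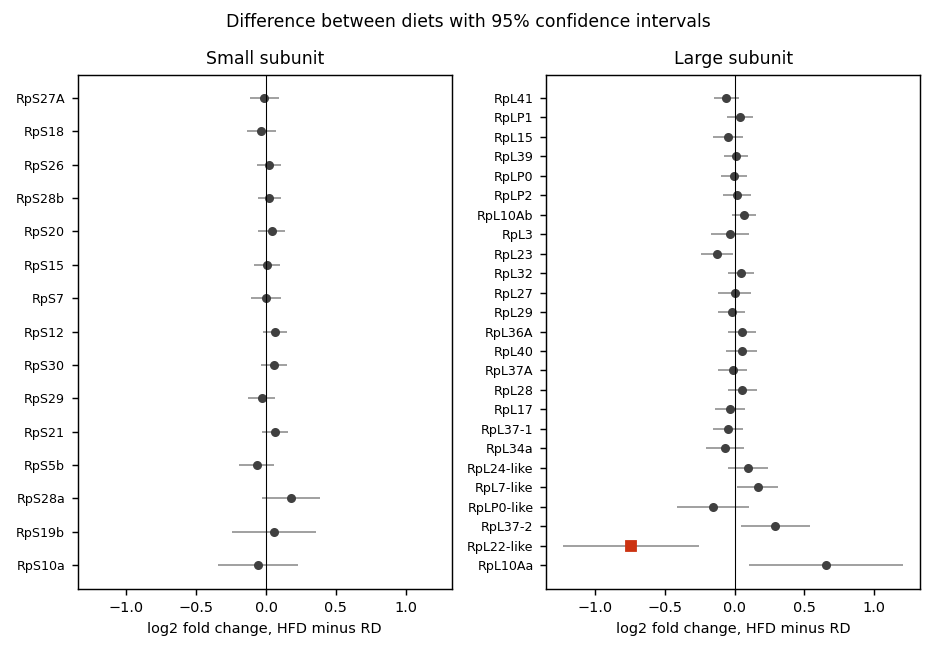
Log2 fold change, HFD minus RD, of the 15 small and 25 large subunit genes tested, with 95% confidence intervals of the limma fit, in order of signal. The red square is RpL22-like, at -0.74, the gene past an adjusted p of 0.05; intervals widen towards the dim genes at the bottom.

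The subunits were set against each other without a test, since this is a score over the members. The small subunit median exceeded the large subunit median by 0.020 on the log2 scale. On single arrays the median deviation of small subunit genes from their 6-array mean, minus that of large subunit genes, was 0.0053, -0.0078 and -0.0096 on RD arrays 1 to 3. On HFD arrays 1 to 3 it was 0.016, 0.0051 and -0.00015. The diets overlapped, and the difference changed sign with array weights (-0.0067) or without RD array 3 (-0.0098).

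The values of the members moved together from array to array. Within HFD, array 1 had the lowest signal for 34 of 40 members and array 3 the highest for 26. Within RD, array 3 was the lowest for 26 and array 2 the highest for 22. The median deviation from the mean of the diet was -0.051, 0.012 and 0.034 for the members on HFD arrays 1 to 3, and -0.042, -5.7e-05 and 0.048 for all tested probe sets. The members are thus not independent measurements of a diet, and their common shift on an array was near that of the whole array.

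RpL22-like was the gene that fell. It codes for a paralogue of the large subunit protein RpL22 that is enriched in the male germline. Its signals were 93.4, 98.2 and 154 on RD arrays 1 to 3 and 80.1, 61.0 and 61.1 on HFD arrays 1 to 3. No HFD value reached the RD range, and RD array 3 was the highest. On HFD arrays 2 and 3 its signal was close to the array median, 62.3 and 60.7. Signals this dim limit how far the size of the fall can be read. The log2 fold change was -0.74 ± 0.21, a level 1.67-fold lower in HFD (95% confidence interval -1.23 to -0.25; limma, adjusted p = 0.0446). The call rested on a narrow margin: it was lost in 9 of 18 alternatives, with the fall kept in all 18, and the adjusted p ran from 0.0002 to 0.335. Leaving out RD array 2 gave an adjusted p of 0.0639 and leaving out RD array 3 gave 0.114. Leaving out HFD arrays 1 to 3 in turn gave 0.0593, 0.125 and 0.105.

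Markers of male tissue and of the female germline were set beside this value. Of 8 testis markers on the array 2 were tested and neither passed, and their summed signal was 121 to 125 in RD and 123 to 132 in HFD. The testis gene dj was at 0 on 2 RD and 3 HFD arrays. Of 8 germline markers, grk rose by 0.31 on the log2 scale and otu and exu fell by 0.23 and 0.22. These calls were lost in 5, 11 and 6 of 19 alternatives. Over all tested probe sets, 12.9% were called higher and 6.63% lower. The summed signal of the germline markers was 19864 to 20443 in RD and 18571 to 19658 in HFD. Such sums are weighted to the brightest probe sets, here osk at a mean of 7319 in RD and 7137 in HFD. The part of these markers in the RpL22-like value was not tested.

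Copies whose partner was also measured were compared by the difference of their log2 signals within each array, which leaves out any single scale factor of the array. The 4 pairs gave adjusted p of 0.267 to 0.3, and 0.1 is the smallest unadjusted p that 3 against 3 arrays allow (exact two-sided permutation test, Benjamini-Hochberg over 4 pairs).

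RpL10Aa is a copy of RpL10Ab, a protein of the mobile L1 stalk. RpL10Aa had signals of 67.5, 45.5 and 45.4 in RD and 97.0, 97.3 and 59.0 in HFD, so HFD array 3 lay inside the RD range. Its log2 fold change was 0.66 ± 0.24 (limma, adjusted p = 0.0927). RpL10Ab had signals of 10858, 10677 and 10783 in RD and 10973, 11411 and 11474 in HFD, without overlap, and a log2 fold change of 0.067 ± 0.038 (limma, adjusted p = 0.24). The log2 difference of RpL10Aa from RpL10Ab was -7.67 in RD and -7.08 in HFD, a shift of 0.59 (exact permutation p = 0.2). Without RD array 1 or HFD array 3 the RpL10Aa value was 0.84 and 0.89 (limma, adjusted p = 0.0372 and 0.033), and without each of the other arrays it was 0.54 to 0.56 (limma, adjusted p = 0.229 to 0.252).

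RpL37-2, a copy of RpL37-1, was at 280 ± 28.5 in RD and 342 ± 31.6 in HFD (SD, n = 3), and the diets overlapped. Its log2 fold change was 0.29 ± 0.11 (limma, adjusted p = 0.0949) and that of RpL37-1 was -0.049 ± 0.047. Within arrays, the log2 difference between the copies was -4.79, -4.72 and -4.46 in RD and -4.22, -4.28 and -4.46 in HFD. RD array 3 and HFD array 3 were level to the second decimal, and the shift was 0.34 (exact permutation p = 0.1). After quantile normalization the shift was 0.18.

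RpS28a and RpS28b code for the same small subunit protein type. RpS28a was at 271 ± 21.0 in RD and 307 ± 19.8 in HFD (SD, n = 3) and RpS28b at 12488 ± 128 and 12695 ± 177. Their shift within arrays was 0.15 (exact permutation p = 0.2). The remaining pair, RpLP0-like and RpLP0, had a shift of -0.15 (exact permutation p = 0.3).

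Of the copies without a measured partner, RpL22-like passed, as given above, and the others did not. RpS5b, the copy of RpS5a used in the female germline, had signals of 7588, 7801 and 7426 in RD and 6795, 7282 and 7729 in HFD. The diets overlapped, with a log2 fold change of -0.067 ± 0.054 (limma, adjusted p = 0.403). RpS19b, the germline copy of RpS19a, was at 137 ± 10.7 in RD and 143 ± 20.4 in HFD, and RpS10a, a copy of RpS10b, at 54.4 ± 1.23 and 52.4 ± 4.14 (SD, n = 3). RpL34a, a copy of RpL34b, was at -0.068 ± 0.060 on the log2 scale.

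The genes named "like" include relatives that act in making ribosomes rather than as parts of them, going by their yeast counterparts. RpL7-like, related to yeast Rlp7, was at 2584 ± 153 in RD and 2896 ± 167 in HFD (SD, n = 3), and the diets overlapped. Its log2 fold change of 0.16 ± 0.063 was the highest among the bright genes (limma, adjusted p = 0.102). It passed in 3 of 19 alternatives, among them quantile normalization, where it was 0.20 (limma, adjusted p = 0.03). RpL24-like, related to yeast Rlp24, was at 0.095 ± 0.062 and RpLP0-like, related to yeast Mrt4, at -0.15 ± 0.11.

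**Figure D3:**
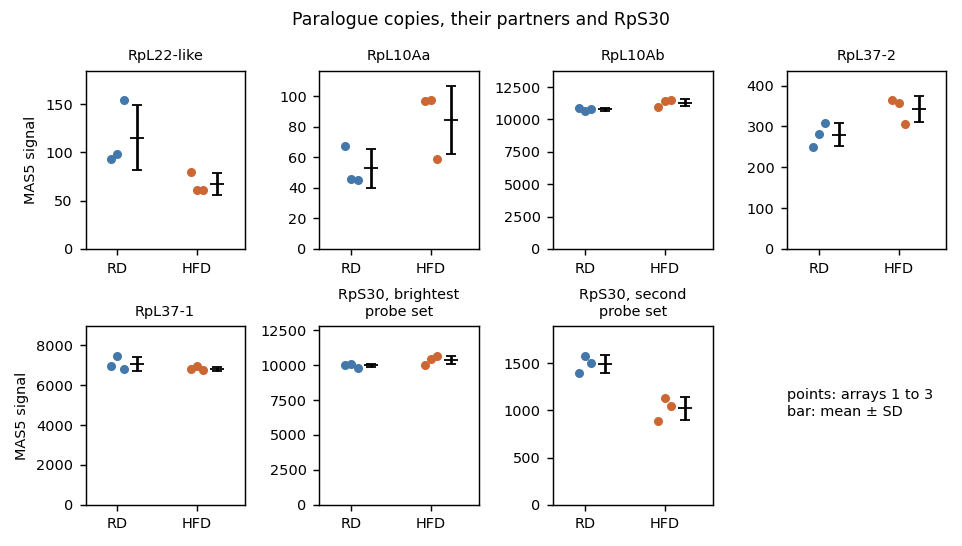
MAS5 signal on RD and HFD arrays for RpL22-like, for the pairs RpL10Aa and RpL10Ab and RpL37-2 and RpL37-1, and for both bright RpS30 probe sets; points are arrays and bars the mean ± SD of 3. The HFD points lie below the RD points for RpL22-like (mean 67.4 against 115) and the second RpS30 probe set (1022 against 1492), and just above them for RpL10Ab.

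RpL3, RpS7, RpS29 and RpS30 had more than 1 probe set, 6 in all beyond the brightest, and for RpS30 these differed most. The others of RpL3 were at -0.025 ± 0.097 and -0.088 ± 0.16 on the log2 scale, that of RpS7 at 0.23 ± 0.25, and the third of RpS29 was too dim to be tested. RpS30 is made as a fusion with a ubiquitin-like protein. Its brightest probe set had signals of 10005, 10110 and 9837 in RD and 10023, 10448 and 10648 in HFD, which overlapped, and a log2 fold change of 0.055 ± 0.040 (limma, adjusted p = 0.358). Its second probe set had signals of 1396, 1575 and 1506 in RD and 884, 1129 and 1052 in HFD, without overlap. That set fell by 0.55 (SE 0.094), 1.47-fold lower (limma, adjusted p = 0.00737). It was singled out after its values were seen. The brightest set is of the kind named _s_at, whose probes can bind transcripts of more than 1 gene, while the second is of the kind meant for a single transcript family. Whether the kind of probe set bears on the values was not tested. The difference between the sets was -0.61 (exact permutation p = 0.1, the smallest possible; adjusted p = 0.3 over 6 comparisons). The second set kept its call in 18 of 19 alternatives; once the 3'/5' ratio of the control transcripts entered the fit it was at -0.39 (limma, adjusted p = 0.138). RpS29 likewise had a second bright probe set that was lower in HFD without overlap, at 9016 ± 341 in RD and 8102 ± 442 in HFD (SD, n = 3; limma, adjusted p = 0.0765), while its brightest set was at -0.031 ± 0.042. Of the 41 probe sets used, 14 were of the _s_at kind.

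**Figure D4:**
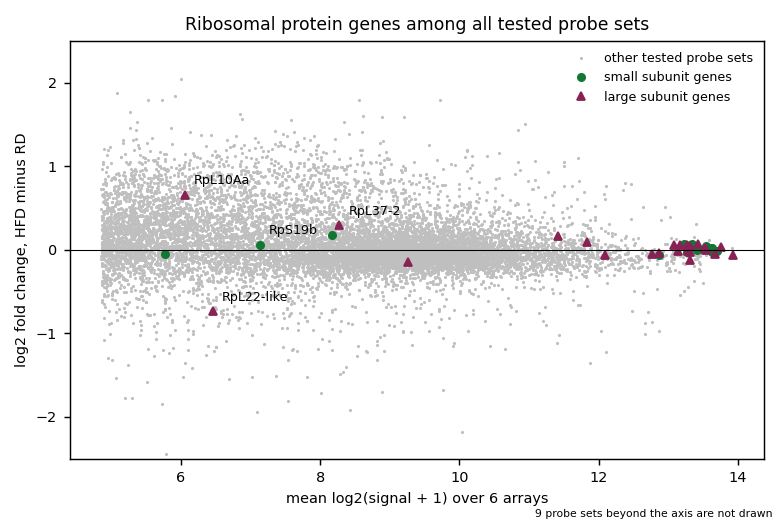
Log2 fold change against mean log2(signal + 1) for the 11261 tested probe sets in grey, with small subunit genes as circles and large subunit genes as triangles; 9 probe sets lie beyond the axis. The bright members sit near 0 at the right, and RpL22-like at -0.74 and RpL10Aa at 0.66 are dim.

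The calls depended on how arrays were scaled. Array medians were 52.8 to 55.3 in RD and 60.7 to 63.8 in HFD, and centring each array on its median shifted the median log2 fold change over all probe sets tested by -0.21. With that centring 25 of 40 members were lower and none higher, against 35.7% lower and 8.63% higher over all tested probe sets, with a member median of -0.20 and a median over all tested probe sets of -0.20. Quantile normalization, in which the medians were 0.040 and -0.037, called 4 members higher and 1 lower, against 11.1% and 10.2% of all tested probe sets. Centring on the brightest 10% called 1 of 40 members higher, RpL7-like, and none lower. Of the 11261 tested probe sets, that scaling called 1675 higher and 780 lower. Centring moves every probe set of an array alike, so the distance of the members' median from that of all tested probe sets, -0.00084, is the same by construction. After quantile normalization it was 0.077.

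**Figure D5:**
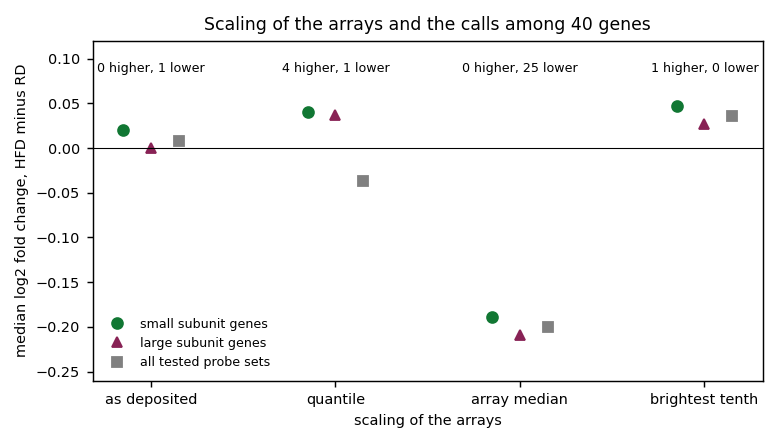
Median log2 fold change, HFD minus RD, of small subunit genes, large subunit genes and all tested probe sets under 4 scalings of the arrays, with the number of 40 members called higher or lower above each. Centring on the array median puts the medians at -0.19, -0.21 and -0.20 and calls 25 genes lower.

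The members were short genes. In the RefSeq table the genomic span had a median of 1086 bases over the 40 tested members and 2628 over 8650 tested genes with a span, and 30 members lay among the shortest 25% of genes (up to 1470 bases). The 2133 other genes of that length had a median log2 fold change of -0.082, and the longest 25% had 0.17. The mean log2 3'/5' signal ratio of the actin, eIF-4a and GAPDH controls, which rises when RNA or its labelled copy is shorter, was 2.52, 1.93 and 2.17 on RD arrays 1 to 3 and 2.66, 2.49 and 2.63 on HFD arrays 1 to 3. With this ratio in the model 2.36% of all tested probe sets passed and no member did, and the members' median was 0.020. Its part in the members' values was not tested further.

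Genes that work with or build ribosomes were read from lists. Of 10 tested genes of elongation, termination and nascent chain binding, 1 rose and 1 fell, with a median log2 fold change of -0.078. Over all tested probe sets, 12.9% were called higher and 6.63% lower. The gene that rose was eEF1alpha2, a gene for the factor that brings aminoacyl-tRNA to the ribosome. Its signals were 919, 697 and 763 in RD and 1699, 1721 and 1733 in HFD, without overlap (1.12 ± 0.095; limma, adjusted p = 0.0016). The termination GTPase eRF3 fell by 0.16 (SE 0.045; limma, adjusted p = 0.0457), a call lost in 10 of 19 alternatives. Rack1, a protein of the small subunit outside the name pattern, was at 8937 ± 173 in RD and 9408 ± 197 in HFD, without overlap, and did not pass (0.074 ± 0.039; limma, adjusted p = 0.211).

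Of 22 ribosome biogenesis genes tested, 2 rose and 1 fell, against 12.9% and 6.63% of all tested probe sets. Their median was -0.051. Fib, the methyltransferase fibrillarin that acts on ribosomal RNA, was at 0.39 ± 0.11 (limma, adjusted p = 0.0387), a call lost in 8 of 19 alternatives. Non1, counterpart of the yeast GTPase Nog1 of large subunit assembly, rose by 0.36 (SE 0.074; limma, adjusted p = 0.0144), a call lost in 3. Tif-IA, an initiation factor of RNA polymerase I, was at -0.25 ± 0.072 (limma, adjusted p = 0.0485), a call lost in 10. Of 10 tested genes that control ribosome synthesis or respond to its loss none passed, against 19.5% of all tested probe sets. Their median was -0.028. S6k, the kinase that phosphorylates RpS6, was among them at 0.15 ± 0.080 (limma, adjusted p = 0.229).

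The whole-body label was checked against tissue markers, which also moved with diet. Over all tested probe sets, 12.9% were called higher and 6.63% lower. Of 9 eggshell markers 7 fell, with Cp18 and Cp16 lowest at -1.35 and -1.23. Of 8 muscle markers 7 rose, with Act88F and sls at 1.38 and 1.19, and all 7 neuron markers rose, with para and Rdl at 1.28 and 1.24. The summed signal was 78154 to 81014 in RD and 55447 to 58322 in HFD for eggshell, 7400 to 9691 and 14521 to 16322 for muscle, and 627 to 976 and 1434 to 1587 for neuron. These sums too are weighted to the brightest probe sets. Fewer cells of a type and less RNA per cell cannot be told apart in whole bodies, and the part of tissue makeup in the ribosomal protein values was not tested.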

How the data were processed

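The 6 arrays, 3 per diet, were grouped by their titles. The deposited intensity values per probe set are linear MAS5 signals, per the submitters' processing notes, with the version not given in the sources used here. The 183 controls were left out, 1 was added before log2, and probe sets with a mean above the 40th percentile of 18769 (4.86 on the log2 scale) were kept. HFD was set against RD by a limma 3.58.1 model under R 4.3.3 (eBayes with an intensity trend, two-sided, Benjamini-Hochberg over 11261 probe sets). The number of arrays limits the precision. Names came from the array annotation (13647 probe sets with 1 symbol, 402 with several, 4720 with none), and all 41 members matched the RefSeq table by gene ID and symbol. The members, lists and tests were chosen with earlier results of these data known.

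Genes were named by rule: members past the threshold, both genes of the 14 listed paralogue pairs where measured, RpL32, the stalk genes, RpS6 (not analysed here), RpS12, RpL40 and RpS27A, and up to 2 genes past the threshold in each direction per list of the 9; others are marked as chosen after their values were seen, or named as members of a described group. Alternatives covered scaling, added constant, filter, moderation, weights, replicate block, control ratio, probe set choice, threshold and single arrays. The joint omission of RD array 1 and HFD array 1 and the second RpS30 probe set were added after seeing the data. The fit was tested on simulated data. Same-numbered arrays of the diets had correlated deviations of 0.072, 0.10 and 0.027, so the numbers were not taken as pairs. Array correlations were 0.965 to 0.993 and no arrays were identical. Figures used Python 3.11.15 and matplotlib 3.10.9.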

Additional observations from a re-analysis of the deposited data

How the results depend on the processing

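The count of all tested probe sets past the threshold, 2196, was 4995 with median centring, 1361 with the 60th percentile filter, 6129 with array weights, 266 with the control 3'/5' ratio and 790 at a threshold of 0.01, and 1008 to 2707 when 1 array was left out. Calls were 66.0% higher as reported, 52.0% with quantile normalization and 19.5% with median centring. Ribosomal protein genes higher in HFD numbered 4 with quantile normalization, 1 with centring on the brightest 10% and 16 with array weights. They numbered 1 with the replicate block, 2 at a threshold of 0.1 and 0 to 1 without 1 array. Over all tested probe sets, the numbers higher in these settings were 1245, 1675, 3532, 1631, 1998 and 763 to 1867, in the same order. Members lower numbered 25 with median centring, 3 with array weights and 2 with the mean of all probe sets of a gene. None was lower with centring on the brightest 10%, no filter, the stricter filter, no intensity trend, the control ratio or a threshold of 0.01, and 0 to 1 were without 1 array. Over all tested probe sets, those lower numbered 4023 with median centring, 2597 with array weights and 780 with centring on the brightest 10%. They numbered 574 with no filter, 573 with the stricter filter and 463 with no intensity trend. With the control ratio they numbered 53, at a threshold of 0.01 177, and without 1 array 245 to 840. With the replicate block 2560 probe sets passed, and RpL10Aa did (0.66, limma, adjusted p = 0.035); the numbers are not known to pair the arrays. The member median was 0.040 with quantile normalization and -0.20 with median centring; that of the small subunit was -0.19 with median centring; that of the large subunit was 0.037, -0.21 and, with array weights, 0.040. The subunit difference was 0.0036 with quantile normalization, -0.0067 with array weights, 0.0054 without RD array 1 and HFD array 1 together (an alternative chosen after seeing the data), and -0.0098 to 0.034 without 1 array. The shift of RpL37-2 against RpL37-1 was 0.18 with quantile normalization. With median centring RpLP1, RpLP2 and RpS28b, among the genes named by rule, changed sign and passed, at -0.17, -0.19 and -0.19. Among the other members RpS26, RpL39, RpS20, RpS15 and RpL27 did so too. Median centring shifted the log2 fold change of every probe set by -0.21, which changed these signs by construction. Why the array medians differed between diets, and the cause of the other changes above, were not tested. Of 200 values of 11 main results under alternatives, 156 stayed within 1 SD between replicates or 1.5 times the count. Of the values of 44 named genes and probe sets under alternatives, 718 kept direction and side of the threshold or stayed uncalled, 67 lost a call, 43 gained one and 3 reversed. The filter at the 60th percentile left 36 members, RpL22-like not among them. The mean of all probe sets of a gene was not run for single named genes. Signals near the array maximum, and those under 100, limit what these arrays show.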

Other observations

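The control probe sets for 18S ribosomal RNA, the RNA core of the small subunit, gave a readout that the comparison above does not use. The 3' probe set had signals of 10764, 9656 and 9238 on RD arrays 1 to 3 and 11801, 8762 and 8110 on HFD arrays 1 to 3. The middle probe set had 12509, 11964 and 12315 in RD and 15434, 13006 and 10923 in HFD. The diets overlapped in both (exact permutation p = 0.7 each) and in the 5' probe set (p = 0.8). HFD array 1 was the highest of the 6 arrays for all 3 probe sets, while it was the lowest HFD array for 34 of 40 ribosomal protein genes. All tested probe sets were also low on that array, with a median deviation from the HFD mean of -0.042, against -0.051 for the members. Ribosomal RNA carries no poly(A) tail, so the 18S signals need not follow its amount.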
